A study of Mus musculus with 24 samples.

Results

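The circadian clock genes described here are 10 genes of the molecular oscillator, taken by name from the gene tables of isolated mouse hepatocytes: Arntl, Npas2, Per1, Per2, Per3, Cry1, Nr1d1, Nr1d2, Dbp and Ciart. All 10 were found among 55421 listed genes, and all 10 were among the 13847 genes with enough counts to be tested. RNA was sequenced from hepatocytes of 24 male C57BL/6J mice, 1 library per animal. From 4 months of age the mice received vehicle or rapamycin, an inhibitor of the growth-regulating kinase mTOR, given in the diet at 42 ppm encapsulated in eudragit (eRapa). At 18 months, 8 vehicle mice stayed on normal diet (ND+veh), 7 vehicle mice went onto a high-fat diet with 60% of calories from fat (HFD+veh), and 9 eRapa mice went onto the same high-fat diet with eRapa kept up (HFD+eRapa), each for 9 weeks. No group had eRapa on normal diet, so each contrast of eRapa is made on high-fat diet or across both treatments. The hour of the day at which hepatocytes were collected is not given in the sources used here, so a difference between groups in these daily cycling genes cannot be told apart from a difference in that hour.

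The clock of the liver is a transcriptional loop that runs once a day. ARNTL (also called BMAL1) pairs with CLOCK or with its relative NPAS2, binds E-box DNA, and switches on the Per and Cry genes, Nr1d1 and Nr1d2, Dbp and Ciart. PER and CRY proteins then shut the activators down, while NR1D1 and NR1D2 (REV-ERB alpha and beta) bind ROR elements and repress Arntl, Npas2 and Cry1. Levels of Arntl and Npas2 are therefore known to peak at about the opposite time of day from those of Nr1d1, Dbp and Per3.

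Members' promoter windows that matched a motif of the loop's own factors are shown first, with the matched letters in capitals. Promoter windows of 300 bases, from 250 before to 50 after the start site, came from RefSeq on GRCm38.p6, in which 9 of the 10 genes were matched with 11 windows. An exact E-box (CACGTG, which the activators bind) was found in 3 members, Ciart, Cry1 and Per1, and 7.15% of 32851 RefSeq windows held one. The D-box letters that DBP binds (TTATGTAA or TTACGTAA) were in Per3 alone among these members, against 1.06% of all windows. The ROR element letters (TAGGTCA or TGGGTCA) were in 1 Arntl window, against 6.45% of all windows. The cyclic AMP element TGACGTCA was in none of the 11, against 1.79%. The windows of Npas2, Nr1d1, Nr1d2 and Dbp held none of these letters, and Per1 is shown although no contrast called it. Both strands were searched, none of the matches overlapped another, and a match is a string of letters and not evidence of binding.
Ciart, chr3:95882179-95882478, minus strand, 3 E-boxes: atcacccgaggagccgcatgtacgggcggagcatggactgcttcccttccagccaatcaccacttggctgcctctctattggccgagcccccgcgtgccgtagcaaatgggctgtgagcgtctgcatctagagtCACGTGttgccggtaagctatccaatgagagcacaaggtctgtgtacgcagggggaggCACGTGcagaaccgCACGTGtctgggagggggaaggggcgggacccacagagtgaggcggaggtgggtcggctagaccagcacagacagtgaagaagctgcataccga
Cry1, chr10:85185005-85185304, minus strand, 1 E-box: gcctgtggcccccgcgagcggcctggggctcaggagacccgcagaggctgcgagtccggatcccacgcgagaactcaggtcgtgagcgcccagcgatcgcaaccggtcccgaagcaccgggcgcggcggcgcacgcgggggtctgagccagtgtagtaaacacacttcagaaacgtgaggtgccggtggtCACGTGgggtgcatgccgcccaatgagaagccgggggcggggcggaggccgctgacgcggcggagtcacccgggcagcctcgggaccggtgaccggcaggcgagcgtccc
Per1, chr11:69098699-69098998, plus strand, 1 E-box: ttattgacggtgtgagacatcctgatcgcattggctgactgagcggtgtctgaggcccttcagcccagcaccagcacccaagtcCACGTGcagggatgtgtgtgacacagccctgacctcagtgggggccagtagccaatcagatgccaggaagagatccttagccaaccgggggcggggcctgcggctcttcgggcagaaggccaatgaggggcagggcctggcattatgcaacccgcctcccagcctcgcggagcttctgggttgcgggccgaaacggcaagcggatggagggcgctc
Per3, chr4:151044616-151044915, minus strand, 2 D-boxes: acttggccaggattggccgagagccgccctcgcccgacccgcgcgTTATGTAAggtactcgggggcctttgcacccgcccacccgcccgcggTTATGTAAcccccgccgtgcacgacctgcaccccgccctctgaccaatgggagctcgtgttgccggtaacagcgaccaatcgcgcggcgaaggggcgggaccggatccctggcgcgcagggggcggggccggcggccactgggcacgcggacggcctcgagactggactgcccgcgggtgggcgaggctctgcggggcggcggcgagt
Arntl, chr7:113207261-113207560, plus strand, 1 ROR element from 30 to 36 bases after the start: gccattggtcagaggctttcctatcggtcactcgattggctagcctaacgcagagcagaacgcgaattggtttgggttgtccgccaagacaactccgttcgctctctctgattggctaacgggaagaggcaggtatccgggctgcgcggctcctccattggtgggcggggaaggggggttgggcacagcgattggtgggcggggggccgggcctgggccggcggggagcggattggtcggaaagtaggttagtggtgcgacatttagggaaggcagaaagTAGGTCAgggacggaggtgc
Counted from the start site, the E-boxes of Ciart began at positions −116, −58 and −44, and the D-boxes of Per3 at −205 and −158.

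The libraries held 17739252 to 25945134 gene counts each and all carried 1 batch label. Levels are counts per 1000000 (CPM) after trimmed-mean scaling with factors from 0.848 to 1.295, and differences are log2 fold changes from 1 edgeR quasi-likelihood fit of all libraries, called at a Benjamini-Hochberg adjusted p under 0.05 over all genes tested. The 7 hepatocyte markers measured summed to between 44500 and 154000 CPM in every library, while macrophage markers (8 genes, none of them at 0 throughout a group) summed to a median of 200 CPM in ND+veh (34.7 to 1150), 1700 in HFD+veh (128 to 3500) and 146 in HFD+eRapa. HFD+veh against ND+veh called 2 of 8 macrophage markers higher, with 1 of 1 lymphocyte, 2 of 3 neutrophil, 1 of 6 endothelial and 3 of 3 cholangiocyte markers tested, and 2 of 7 hepatocyte markers lower. Over all genes tested, 16.0% were called higher there and 9.86% lower. HFD+eRapa against HFD+veh called 6 of 8 macrophage, 1 of 1 lymphocyte, 2 of 3 neutrophil, 6 of 6 endothelial, 5 of 5 stellate cell and 1 of 3 cholangiocyte markers lower. It called 2 of 7 hepatocyte markers higher, where 10.9% of all genes were called higher and 21.1% lower. HFD+eRapa against ND+veh called 4 of 5 stellate cell and 1 of 7 hepatocyte markers lower and 1 of 3 cholangiocyte markers higher, where 13.5% of all genes were called. The neutrophil marker Ly6g was at 0 in every ND+veh and HFD+eRapa library. In bulk RNA, fewer cells of a type and less RNA per cell cannot be told apart.

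The first comparison asked how the clock genes of old hepatocytes differed between high-fat and normal diet, without eRapa. HFD+veh against ND+veh called 7 of the 10 members, of which 4 were higher and 3 lower, where 25.9% of all genes tested were called (16.0% higher and 9.86% lower). The activator genes Arntl and Npas2 and the repressor gene Cry1 were lower on high-fat diet, and Dbp, Per3, Ciart and Nr1d2 were higher. The median absolute log2 fold change of the members was 1.11, against 0.32 over all genes tested. No member had groups that did not overlap, which 2.44% of all genes did.

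**Figure D1:**
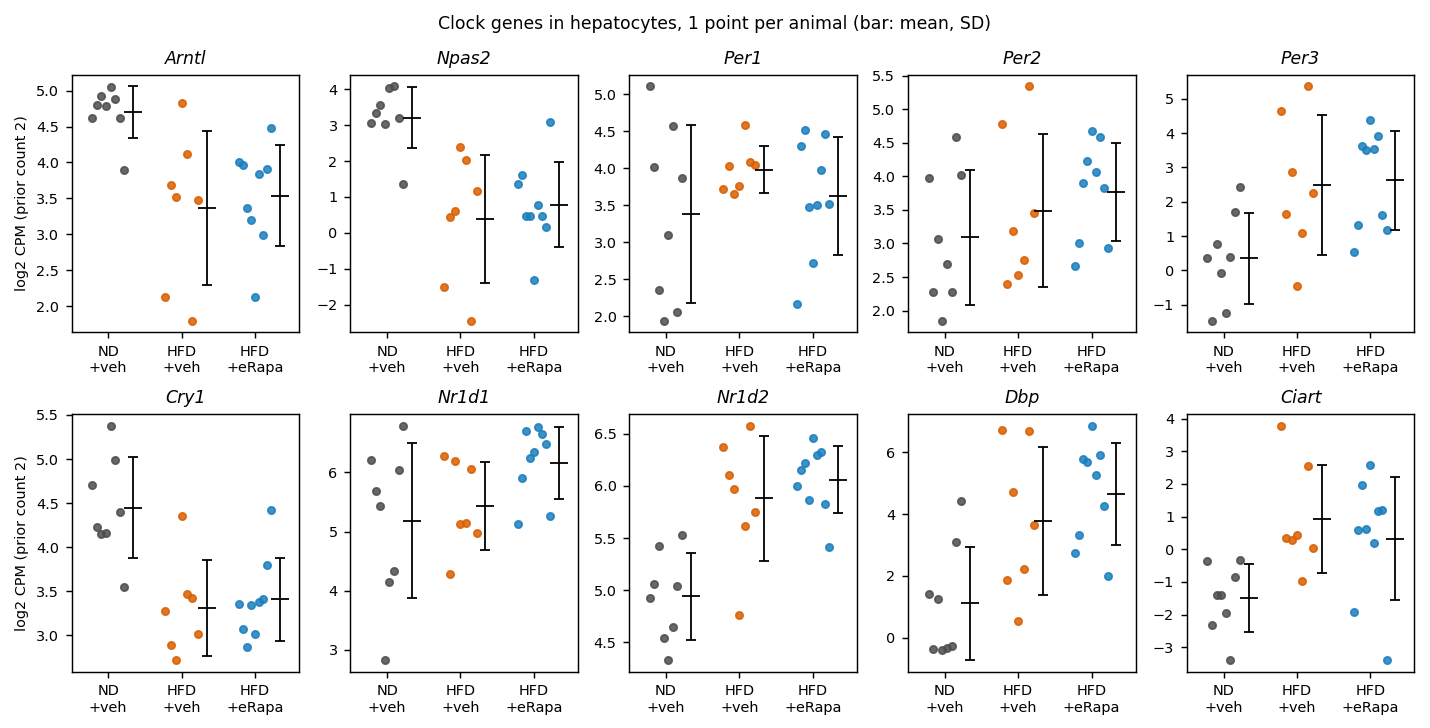
Levels of the 10 clock genes as log2 CPM (prior count 2), with 1 point per animal in each of ND+veh, HFD+veh and HFD+eRapa and a bar for the group mean and SD. The sideways position of points within a group carries no meaning. Arntl, Npas2 and Cry1 sit lower, and Dbp, Per3, Ciart and Nr1d2 higher, in both high-fat groups than in ND+veh, with overlap between animals.

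Arntl (chr7:113207465-113314126, plus strand), the partner common to both activator dimers, had a lowest, median and highest level of 14.7, 27.6 and 33.0 CPM in ND+veh, 3.39, 11.4 and 28.4 in HFD+veh, and 4.27, 14.2 and 22.3 in HFD+eRapa. All but 1 HFD+veh animal lay below the ND+veh median, and the exception reached into the upper part of the ND+veh range. In HFD+veh Arntl was 2.09-fold below its ND+veh level (log2 −1.06, SE 0.35, adjusted p = 0.0305). The call was lost without any 1 of HFD+veh replicates 3, 4 and 6 or ND+veh replicate 5, at adjusted p from 0.0522 to 0.0548.

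Npas2 (chr1:39193731-39363236, plus strand), the alternative partner of ARNTL, ran from 2.47 to 16.9 CPM with a median of 9.57 in ND+veh, from 0.0881 to 5.17 with a median of 1.42 in HFD+veh, and from 0.309 to 8.45 with a median of 1.30 in HFD+eRapa. Every HFD+veh animal lay below the ND+veh median, and the groups overlapped through ND+veh replicate 3, the lowest of its group. It was 5.06-fold lower in HFD+veh (log2 −2.34, SE 0.65, adjusted p = 0.0131), the largest fall among the members. HFD+veh replicates 1 and 2 held 5 and 2 Npas2 counts, so the low end rests on few reads.

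Cry1 (chr10:85131700-85185064, minus strand), which encodes a repressor protein but whose transcription is itself held down through ROR elements, moved with the activators. Its lowest, median and highest levels were 11.6, 19.9 and 41.4 CPM in ND+veh and 6.48, 9.60 and 20.3 in HFD+veh. In HFD+eRapa they were 7.20, 10.2 and 21.3. The fall in HFD+veh was 2.22-fold (log2 −1.15, SE 0.27, adjusted p = 0.00537), and 6 of 7 HFD+veh animals were below the ND+veh median.

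Dbp (chr7:45705088-45710203, plus strand), a D-box activator that is a direct E-box target, varied widely between animals. It ran from 0.664 to 21.6 CPM with a median of 1.52 in ND+veh, from 1.36 to 106 with a median of 12.5 in HFD+veh, and from 3.94 to 117 with a median of 38.5 in HFD+eRapa. All HFD+veh animals but replicate 7 lay above the ND+veh median, and replicates 1 and 2, at 106 and 103 CPM, stood far above the next, at 26.4. Dbp was 7.72-fold higher in HFD+veh (log2 2.95, SE 0.96, adjusted p = 0.0284). The call was lost without HFD+veh replicate 1 or 2 or ND+veh replicate 1 or 5 (adjusted p from 0.0511 to 0.0587), and without ND+veh replicate 3 the difference was 3.96. Dbp shares 539 exon bases with Sphk2 on the opposite strand, and whether the counting used strand is not stated. Sphk2 itself was not called in the same contrast (log2 −0.32, SE 0.18, adjusted p = 0.192), and Dbp fell as low as 13 counts in libraries where Sphk2 kept at least 407. The part of the shared bases in the Dbp counts was not tested.

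Per3 (chr4:151003652-151044665, minus strand), a period gene often regarded as an output rather than a core repressor, ran from 0.264 to 5.26 CPM with a median of 1.20 in ND+veh, from 0.627 to 41.3 with a median of 4.68 in HFD+veh, and from 1.34 to 20.7 with a median of 11.4 in HFD+eRapa. As for Dbp, HFD+veh replicates 1 and 2 were the highest of their group, at 25.1 and 41.3 CPM. Per3 was 6.86-fold higher in HFD+veh (log2 2.78, SE 0.80, adjusted p = 0.0158), and without HFD+veh replicate 2 the difference was 2.02 (adjusted p = 0.0436).

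Ciart (chr3:95878503-95882251, minus strand), the transcriptional repressor also called CHRONO, had few counts in ND+veh. It had 0 to 15 counts per library there, or 0 to 0.698 CPM with a median of 0.284. In HFD+veh it ran from 0.417 to 13.8 CPM with a median of 1.18, and in HFD+eRapa from 0, in replicate 1, to 5.87 with a median of 1.44. All 7 HFD+veh animals were above the ND+veh median, and Ciart was 10.2-fold higher there (log2 3.36, SE 0.86, adjusted p = 0.0087). Without HFD+veh replicate 1, the highest animal, the difference was 2.39 (adjusted p = 0.025).

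Of Nr1d2 and Nr1d1, the genes of the REV-ERB repressors, the first was called and the second was not, and the difference between them was not tested. Nr1d2 (chr14:18204054-18239127, minus strand) stood at 20, 31.5 and 46.0 CPM for lowest, median and highest in ND+veh, 26.9, 62.6 and 95.3 in HFD+veh, and 42.6, 70.7 and 88.1 in HFD+eRapa. It was 1.98-fold higher in HFD+veh (log2 0.99, SE 0.21, adjusted p = 0.00296), with 6 of 7 animals above the ND+veh median. Nr1d1 (chr11:98767932-98775333, minus strand) ran from 7.02 to 110 CPM with a median of 47.1 in ND+veh, from 19.3 to 76.9 with a median of 35.3 in HFD+veh, and from 34.7 to 109 with a median of 80.9 in HFD+eRapa. The ND+veh animals alone spanned a 15.7-fold range of Nr1d1, which held all 7 HFD+veh animals. Its fitted difference was −0.02 (SE 0.42, adjusted p = 0.981), with 2 SE limits of −0.87 and 0.83. Nr1d1 shares 263 exon bases with Thra on the opposite strand, whose summed counts were 20.9% of those of Nr1d1.

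Per1 and Per2, the period genes that also answer to hormones, feeding and stress signals, were not called. Per1 (chr11:69095217-69109960, plus strand) ran from 3.74 to 34.5 CPM in ND+veh with a median of 11.5, and from 12.4 to 23.9 in HFD+veh with a median of 16.2. The HFD+veh animals lay close together inside the wider ND+veh range, and the difference was 0.22 (2 SE limits −0.60 and 1.05, adjusted p = 0.717). Per2 (chr1:91415982-91459324, minus strand) ran from 3.51 to 23.9 CPM in ND+veh with a median of 7.31 and from 5.14 to 40.5 in HFD+veh with a median of 8.97, a difference of 0.53 (2 SE limits −0.43 and 1.48, adjusted p = 0.429). HFD+veh replicates 1 and 2 were again the highest, at 27.3 and 40.5 CPM, and without replicate 2 the difference was 0.04.

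The calls for the rising genes of low abundance in HFD+veh depended on the method. With limma voom, Per3, Dbp and Ciart were not called (adjusted p = 0.125, 0.138 and 0.094), nor were Per3 and Ciart on log2(FPKM + 1) (limma adjusted p = 0.0838 and 0.0668). Without a filter on low counts, edgeR called neither Arntl (adjusted p = 0.0536) nor Dbp (adjusted p = 0.0665), and a fit of only these 2 groups did not call Dbp (adjusted p = 0.0595).

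The 2 HFD+veh animals with the most Dbp and Per3 were those with the lowest immune marker scores. The score, a mean z value of 12 macrophage, lymphocyte and neutrophil markers, was −0.389 and −0.353 in HFD+veh replicates 1 and 2 and 0.763 to 1.68 in the other HFD+veh animals. Among those others the order did not hold. Replicate 7, at 0.763, had the least Dbp, 1.36 CPM, and replicates 4 and 3, at 1.29 and 1.47, had 26.4 and 12.5 CPM. In HFD+eRapa, replicates 5, 6, 8 and 9, with scores of −1.27, −1.76, −1.16 and −1.01, held 51.0, 60.8, 117 and 38.5 CPM of Dbp. Replicates 7 and 3, with scores of −0.172 and 0.00454, held 55.1 and 19.1 CPM, and replicates 1, 4 and 2, with scores of 0.266, 0.51 and 0.673, held 3.94, 10.1 and 6.54. ND+veh did not follow the same order, since replicate 1, with the lowest score of −1.31, held 2.55 CPM of Dbp and replicate 3, with a score of −0.697, held 21.6. Adding the score to the model as a covariate gave calls for 8 of 10 members in this contrast, where 8.34% of all genes were called. Per2 gained its call (1.47, edgeR adjusted p = 0.00124), and the differences were larger for Dbp (4.43), Per3 (3.71), Npas2 (−3.44) and Arntl (−1.74). In both high-fat groups the score divided by replicate number as Dbp did. It was negative in HFD+veh replicates 1 and 2 and HFD+eRapa replicates 5 to 9, and positive in the other animals of these groups. The score and the order of the numbers can therefore not be told apart in these groups. The part of immune cells in these levels was otherwise not tested.

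**Figure D2:**
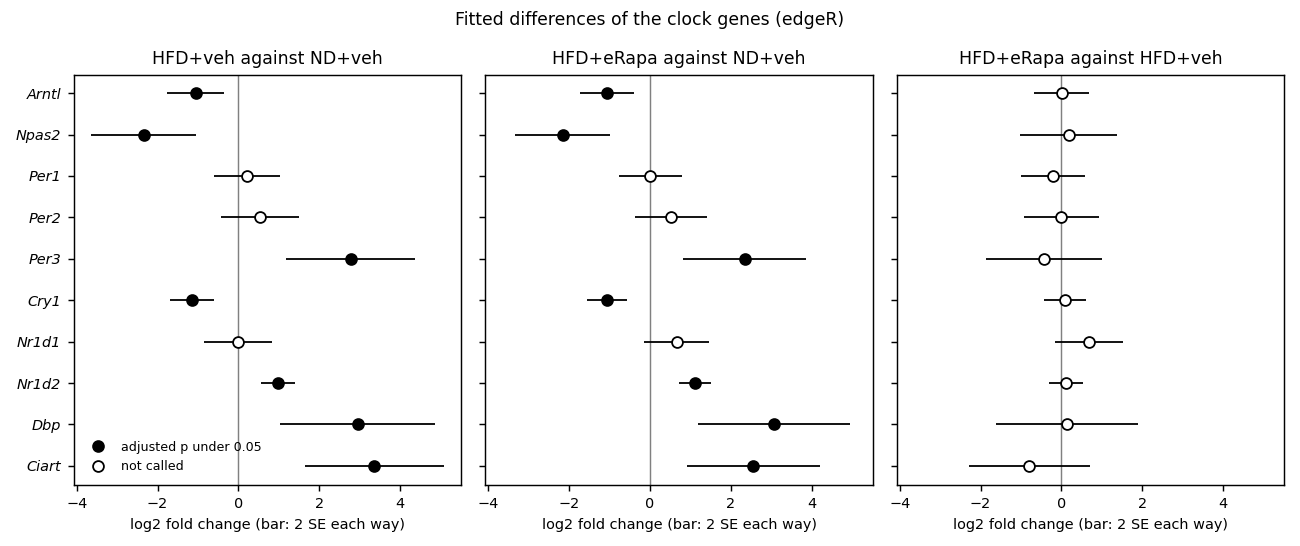
Fitted log2 fold changes of the 10 clock genes in the 3 contrasts, with bars of 2 SE each way and filled points for an adjusted p under 0.05. Both contrasts against ND+veh, which share the same 8 control animals, call 7 members, while every bar of HFD+eRapa against HFD+veh crosses 0.

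The second comparison asked whether the clock genes differed with eRapa in mice on high-fat diet. None of the 10 members was called between HFD+eRapa and HFD+veh, where 32.0% of all genes tested were called. None had an unadjusted p under 0.05 either, and DESeq2 also called 0. The largest fitted difference was that of Ciart, at −0.80 (SE 0.75, adjusted p = 0.441), and the smallest adjusted p was that of Nr1d1, 0.225, for a difference of 0.67 (2 SE limits −0.16 and 1.51) with 8 of 9 HFD+eRapa animals above the HFD+veh median. The median absolute difference of the members was 0.15, against 0.31 over all genes. Every member's groups overlapped, where those of 2.59% of all genes did not.

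How closely the comparison bounds each gene differed greatly. Limits of 2 SE were narrow for Nr1d2 (−0.30 to 0.53), Cry1 (−0.44 to 0.61) and Arntl (−0.67 to 0.69). They were wide for Dbp (−1.62 to 1.88), Per3 (−1.88 to 1.01) and Ciart (−2.30 to 0.71), so a difference of 1 log2 unit in those genes was not detectable with this spread among animals. Npas2 differed by 0.18 (−1.03 to 1.39), Per1 by −0.21 (−1.02 to 0.59) and Per2 by −0.00 (−0.93 to 0.93). With that score added to the model, under which 6.23% of all genes were called, Per2 (−1.09, adjusted p = 0.0175) and Per3 (−1.93, adjusted p = 0.0407) were called lower in HFD+eRapa, and Dbp, Nr1d1 and Nr1d2 changed sign without being called.

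HFD+eRapa against ND+veh, the contrast across diet and drug together, called 7 members, where 13.5% of all genes were called (6.93% higher and 6.54% lower). These were the same 7 genes as for HFD+veh, in the same directions. No member had groups without overlap, as 3.37% of all genes had. The ND+veh animals are shared, so the contrasts are not independent, and their values stand side by side here. Dbp was 8.45-fold higher (log2 3.08, SE 0.94, adjusted p = 0.030), Ciart 5.89-fold higher (2.56, SE 0.82, adjusted p = 0.0397) and Per3 5.07-fold higher (2.34, SE 0.76, adjusted p = 0.0421). Nr1d2 was 2.15-fold higher (1.11, SE 0.20, adjusted p = 0.000596), with 9 of 9 animals above the ND+veh median. Npas2 was 4.47-fold lower (−2.16, SE 0.59, adjusted p = 0.0144), Cry1 2.09-fold lower (−1.07, SE 0.25, adjusted p = 0.00522) and Arntl 2.08-fold lower (−1.06, SE 0.33, adjusted p = 0.0322). Nr1d1 (0.66, adjusted p = 0.320), Per2 (0.52, adjusted p = 0.514) and Per1 (0.01, adjusted p = 0.992) were not called.

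The calls for Arntl, Dbp, Per3 and Ciart in this contrast stood near the threshold. Leaving out 1 library ended the call for Arntl in 7 fits, for Dbp in 7, for Ciart in 10 and for Per3 in 12, with adjusted p no higher than 0.0906. The number of members called fell to 3 without ND+veh replicate 4, 5 or 6 or HFD+eRapa replicate 8, and to 4 without ND+veh replicate 7 or 8 or HFD+eRapa replicate 6 or 7. With limma voom, Per3, Ciart and Dbp were not called (adjusted p = 0.16, 0.386 and 0.0712), and without a filter on low counts edgeR did not call Arntl, Per3, Dbp or Ciart (adjusted p from 0.0809 to 0.108). On log2(FPKM + 1) limma did not call Per3 or Ciart (adjusted p = 0.148 and 0.228). Cry1, Npas2 and Nr1d2 kept their calls in all 24 such fits, and without HFD+eRapa replicate 1 the difference of Npas2 was −2.75.

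Compared per length of transcript, as FPKM (fragments per kilobase of transcript and 1000000 mapped fragments), the order of the members' levels also differed between groups. In ND+veh the median FPKM ran from Nr1d1 at 19.5, Arntl at 8.51, Nr1d2 at 7.25, Cry1 at 6.83 and Npas2 at 5.93 down through Per1 at 2.41, Per2 at 1.48, Dbp at 0.994, Ciart at 0.347 and Per3 at 0.202. In HFD+veh Nr1d2 led at 15.1, with Nr1d1 at 12.7, Dbp at 8.15 and Arntl at 4.25, while Npas2 came last at 0.46. In HFD+eRapa Dbp led at 26.0 and Nr1d1 stood at 25.2, with Nr1d2 at 14.9, and Npas2 was again last at 0.67. Neighbours in these orders overlapped from animal to animal, Dbp and Nr1d1 in HFD+eRapa running from 3.10 to 74.5 and from 10.1 to 41.3 FPKM. Some FPKM values departed from their counts. Per2 in ND+veh replicate 4 was listed at 10.1 FPKM with 263 counts. The other ND+veh animals had at most 3.22 FPKM, and of these replicate 2 had 628 counts. Npas2 in HFD+veh replicate 1, which set the group median of 0.46 FPKM, had 5 counts, against 0.344 FPKM with 36 counts in replicate 4. Ciart in HFD+eRapa was at 0.339 FPKM with 29 counts in replicate 4 and at 2.23 FPKM with 39 counts in replicate 3.

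Animals of the same group differed widely in these genes. The median within-group SD of the members in log2 CPM was 1.02 in ND+veh, 1.11 in HFD+veh and 0.77 in HFD+eRapa, against 0.32, 0.45 and 0.31 over all genes tested. Dbp stood at the 99.1, 99.2 and 98.3 percentiles of all genes by SD in the 3 groups, and Per3 at 95.5, 97.5 and 97.3. Nr1d2 (63.1, 65.1 and 51.5) and Cry1 (74.4, 59.5 and 69.9) were nearer the middle. The SD of Arntl was 0.36 in ND+veh, at percentile 55.6, and 1.07 and 0.70 in the high-fat groups, and that of Per1 was 1.20 in ND+veh and 0.32 in HFD+veh. These are descriptions, and the differences in spread between groups were not tested. Some members ran with the replicate number within a group. Per2 in ND+veh stood at 15.7 to 23.9 CPM in replicates 1 to 3 and at 3.51 to 8.28 in replicates 4 to 8. Dbp in HFD+veh was 106 and 103 CPM in replicates 1 and 2 and 1.36 to 26.4 in replicates 3 to 7. In HFD+eRapa it ran the other way, at 3.94 to 19.1 in replicates 1 to 4 and 38.5 to 117 in replicates 5 to 9. Per1 in ND+veh showed no such order. What the numbers stand for is not given, and their part was not tested.

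Within each group the arms of the clock ran opposite to each other from animal to animal. The mean of Arntl and Npas2 correlated with the mean of the other 8 members at r = −0.72 in ND+veh, −0.96 in HFD+veh and −0.83 in HFD+eRapa, given as a description over 8, 7 and 9 animals whose libraries share their scaling. Of the 14 pairs of Arntl or Npas2 with any of these members except Cry1, 14, 12 and 12 had a negative r, and the exceptions in the high-fat groups were the pairs with Per1. Cry1 ran with the activators, at r from 0.36 to 0.72 with Arntl. Arntl and Npas2 rose and fell together, at r = 0.96, 0.97 and 0.87. Dbp, Per3 and Ciart were positively correlated with each other in all groups, at r from 0.57 to 0.98.

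Arntl with Dbp, an activator with its direct target, was the one pair of the 6 tested whose r passed in all 3 groups (18 two-sided exact permutation tests, adjusted together). In HFD+eRapa r was −0.89 (exact p = 0.000909, adjusted 0.00818) and Spearman's rho −0.98 (exact p = 4.96e-05, adjusted 0.000893), and without the 2 animals farthest from the median r was −0.90 (exact p = 0.000992). In HFD+veh r was −0.95 (exact p = 0.00159, adjusted 0.00952) and rho −0.89 (exact p = 0.0123, adjusted 0.0554), and without replicates 1 and 2 it was −0.85 over 5 animals (exact p = 0.0667). In ND+veh r was −0.84 (exact p = 0.00791, adjusted 0.0237) with rho of −0.60 (exact p = 0.132, adjusted 0.238). Without ND+veh replicates 3 and 5 it was −0.58 (exact p = 0.206), so the ND+veh relation rests on those animals. The ND+veh call was also lost without any 1 of replicates 1, 2 and 3 (exact permutation, adjusted p = 0.0536, 0.0888 and 0.261) and with total-count scaling (−0.60, exact permutation, adjusted p = 0.292).

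**Figure D3:**
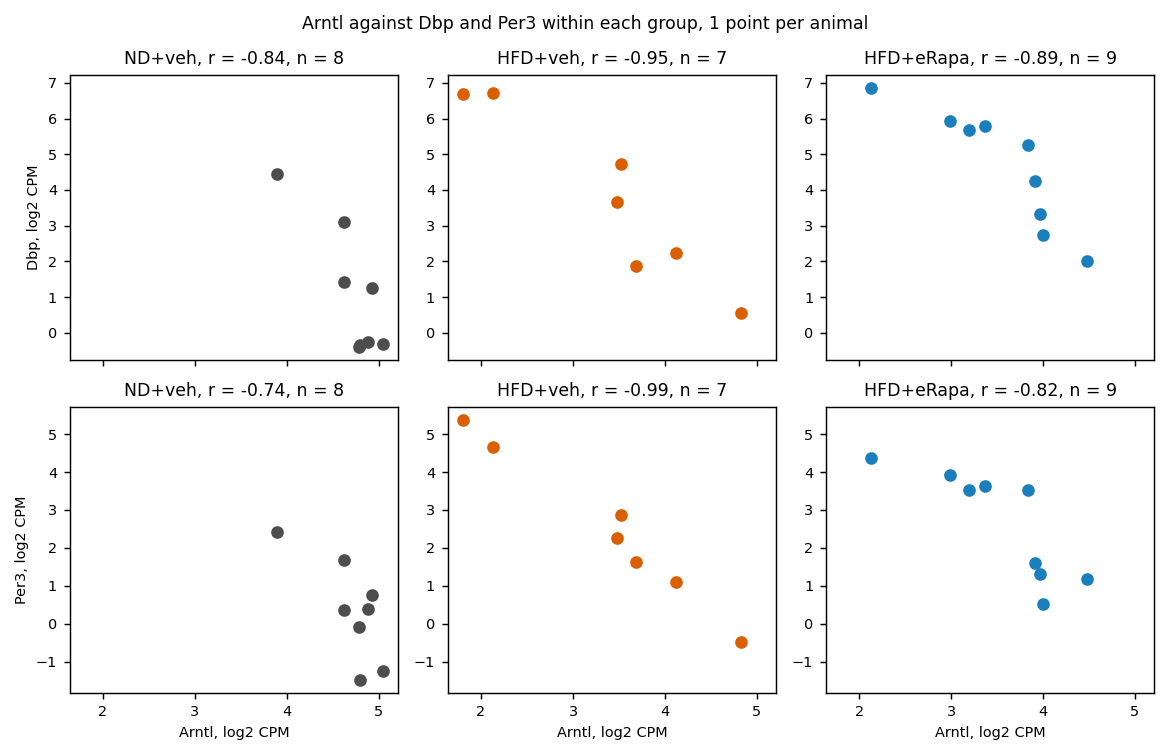
Arntl on the horizontal axis against Dbp (upper row) and Per3 (lower row), both in log2 CPM, with 1 point per animal and 1 panel per group. Animals with less Arntl had more of both genes, at r from −0.84 to −0.95 for Dbp and from −0.74 to −0.99 for Per3, and the ND+veh points are crowded at high Arntl with replicate 3 standing off to the left.

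Arntl with Per3 was closest in HFD+veh, at r = −0.99 (exact p = 0.000397, adjusted 0.00714) and rho = −0.96 (exact p = 0.00278, adjusted 0.0167). Without replicates 1 and 2 it was −0.97 over 5 animals (exact p = 0.0167). In HFD+eRapa r was −0.82 (exact p = 0.00359, adjusted 0.0161), rho was −0.93 (exact p = 0.00075, adjusted 0.00675), and r without the 2 farthest animals was −0.77 (exact p = 0.0325), but the adjusted p rose past 0.05 without replicate 1 and with total-count scaling (0.0816). In ND+veh r was −0.74 (exact p = 0.0213, adjusted 0.0548) and rho −0.55 (exact p = 0.171, adjusted 0.28), and without replicates 3 and 5 it was −0.28 (exact p = 0.621). It passed without replicate 4 or 7 (exact permutation, adjusted p = 0.0276 and 0.0455). Whether r differed between groups was not tested.

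The pairs with Nr1d1, the repressor of Arntl, were looser. Arntl with Nr1d1 gave r = −0.63, −0.62 and −0.51 in ND+veh, HFD+veh and HFD+eRapa (exact p = 0.0957, 0.146 and 0.159, adjusted 0.157, 0.213 and 0.213), with rho of −0.71, −0.46 and −0.57 (exact p = 0.0576, 0.302 and 0.121). Npas2 with Nr1d1 gave −0.53, −0.59 and −0.65 (exact p = 0.175, 0.177 and 0.0571, adjusted 0.213, 0.213 and 0.103). None passed, and in HFD+veh both rested on replicates 1 and 2, without which r was −0.11 for Arntl and 0.00 for Npas2. Without ND+veh replicate 8, the animal with the least Nr1d1, the ND+veh values were −0.81 for Arntl and −0.87 for Npas2, and both then passed. Npas2 with Nr1d1 in HFD+eRapa passed without replicate 8 (r = −0.77, exact permutation, adjusted p = 0.048). Nr1d1 with Dbp, genes of the same phase, gave r = 0.76, 0.81 and 0.83 (exact p = 0.0259, 0.0345 and 0.00634, adjusted 0.0583, 0.069 and 0.0228) and rho = 0.83, 0.79 and 0.63 (exact p = 0.0154, 0.048 and 0.076), and the HFD+eRapa value fell to 0.48 (exact p = 0.278) without replicates 1 and 2. The HFD+eRapa call was lost without any 1 of replicates 1, 2 and 4, and the ND+veh value passed without replicate 7 (exact permutation, adjusted p = 0.0301).

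Per1 had weak correlations with most other members. Its r with Per2 was 0.05, −0.14 and 0.16 in ND+veh, HFD+veh and HFD+eRapa (exact p = 0.896, 0.758 and 0.688, adjusted 0.896, 0.802 and 0.774), with rho of 0.02, 0.07 and −0.08 (exact p = 0.977, 0.906 and 0.843). Its r with Arntl lay between −0.20 and 0.17 and its r with Dbp between −0.23 and 0.11. Its r with Nr1d1 was larger and not of one sign, at 0.38, −0.41 and 0.54, and with Ciart it was −0.14, −0.46 and 0.36. Per2, in contrast, had r = 0.87, 0.92 and 0.95 with Dbp, given as a description.

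**Figure D4:**
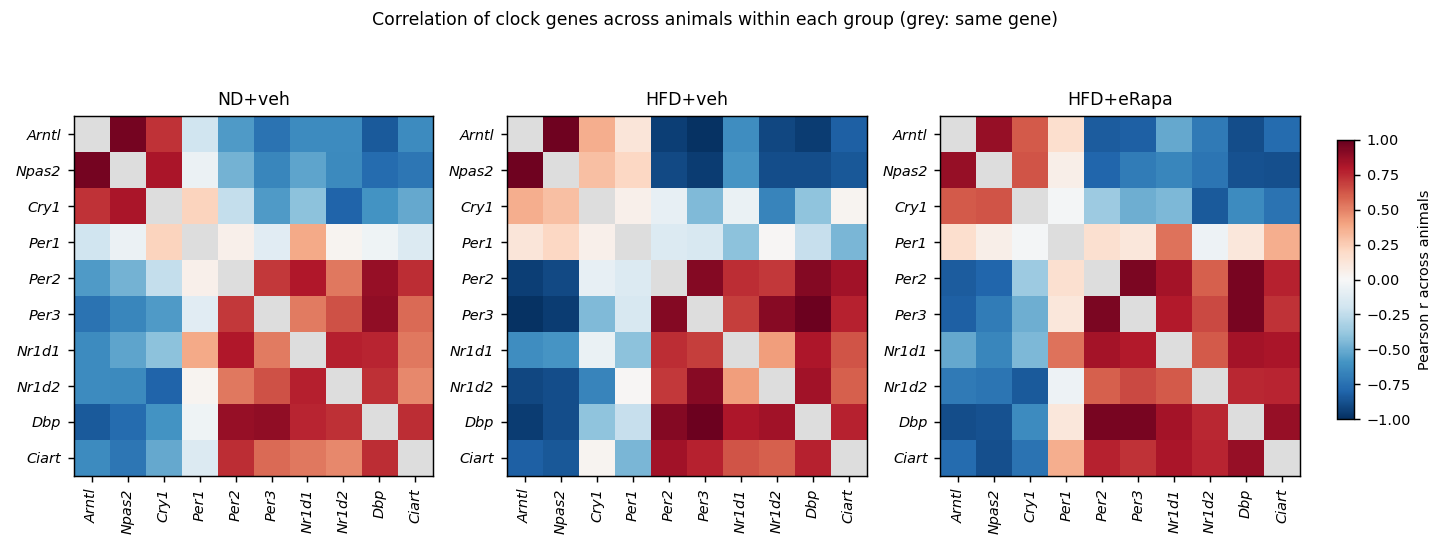
Pearson r across animals for each pair of the 10 clock genes on log2 CPM, in panels for ND+veh (8 animals), HFD+veh (7) and HFD+eRapa (9), from −1 in blue to 1 in red. Arntl and Npas2 form a block opposite to Per2, Per3, Nr1d1, Nr1d2, Dbp and Ciart, and r of Per1 with any other gene lies between −0.46 and 0.54.

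The genes whose levels followed the clock most closely were searched among 7800 other expressed genes with group means removed (r over all 24 libraries, a description). Tef, a D-box activator of the same family as DBP, was the most like Dbp (r = 0.95) and the most opposed to Arntl (r = −0.89). Among the genes most like Arntl were Clpx (0.93), a mitochondrial protease subunit, Insig2 (0.88), which restrains sterol synthesis, Tubb2a (0.85) and Tab2 (0.85). Besides Tef, Fzd4 (−0.88), a Wnt receptor, Upp2 (−0.80), a uridine phosphorylase, Mcoln1 (−0.78) and Marveld1 (−0.78) were most opposed to Arntl. Dbp was followed by Cyp2d37-ps (0.88), Hnrnpdl (0.87), Aopep (0.87) and Metap1d (0.87) and opposed by Tab2 (−0.93), Arl4a (−0.88), Desi2 (−0.87), Clpx (−0.87) and Lgalsl (−0.86). Tef held its sign in each group, at 0.91, 0.97 and 0.99 with Dbp. In ND+veh alone, r with Arntl was weaker for Clpx (0.56), Insig2 (0.48), Tubb2a (0.42), Fzd4 (−0.39) and Marveld1 (−0.46). For Tab2 (0.76), Upp2 (−0.83) and Mcoln1 (−0.74) it was nearer to the r over all libraries.

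Of 21 other genes of the loop, 20 were tested. HFD+veh against ND+veh called 3 of 20, where 25.9% of all genes were called, and DESeq2 called 5 and the model with the immune score 7. The edgeR calls were Tef (1.24, SE 0.45, adjusted p = 0.0456) and Fbxw11 (0.29, SE 0.10, adjusted p = 0.0356) higher and Nfil3 (−1.25, SE 0.29, adjusted p = 0.00526) lower. Nfil3 is a D-box repressor whose own gene is held down by the REV-ERB proteins, and Fbxw11 is a ubiquitin ligase subunit that acts on PER proteins. Nfil3 had a lowest, median and highest level of 27.2, 54.5 and 67.1 CPM in ND+veh, 11.2, 14.1 and 47.8 in HFD+veh, and 21.4, 28.5 and 54.0 in HFD+eRapa. Tef ran at 15.3, 26.4 and 70.0 CPM in ND+veh, 22.9, 50.7 and 186 in HFD+veh, and 31.1, 87.9 and 140 in HFD+eRapa. In both genes all 3 groups overlapped.

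Clock, the main partner of ARNTL, was not called in any contrast. It was steady in ND+veh, from 48.8 to 68.6 CPM with a median of 58.6, and ran from 38.4 to 79.4 with a median of 52.1 in HFD+veh, a difference of −0.16 (2 SE limits −0.50 and 0.18). Cry2, the paralogue of Cry1, had medians of 19.8, 17.7 and 19.1 CPM in ND+veh, HFD+veh and HFD+eRapa and a difference of 0.26 in HFD+veh (2 SE limits −0.26 and 0.78), which was not called. HFD+eRapa against HFD+veh called 2 of 20, where 32.0% of all genes were called, Csnk1e (−0.77, SE 0.22, adjusted p = 0.011), a kinase of PER proteins, and Fbxw11 (−0.28, SE 0.10, adjusted p = 0.0334), both lower. HFD+eRapa against ND+veh, where 13.5% of all genes were called, called Tef alone (1.30, SE 0.43, adjusted p = 0.0468).

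Genes driven by the clock in liver were examined as a list of 14 outputs. HFD+veh against ND+veh called 6 of them, where 25.9% of all genes were called, with Nampt (1.56, SE 0.23, adjusted p = 0.000121), Noct (1.53, SE 0.32, adjusted p = 0.0022), Upp2 (2.08, SE 0.42, adjusted p = 0.00189), Usp2 (1.51, SE 0.56, adjusted p = 0.0487) and Wee1 (0.98, SE 0.36, adjusted p = 0.049) higher and Elovl3 (−2.54, SE 0.46, adjusted p = 0.0008) lower. Nampt makes NAD, Noct is a nocturnal phosphatase of NADP cofactors, Wee1 is a mitotic kinase and Elovl3 lengthens fatty acids. HFD+eRapa against HFD+veh also called 4 of the 14, a share near the 32.0% of all genes called there, Elovl3 higher (2.59, SE 0.46, adjusted p = 0.000461) and Nampt (−1.24, SE 0.22, adjusted p = 0.000505), Noct (−1.60, SE 0.31, adjusted p = 0.000804) and Upp2 (−1.35, SE 0.40, adjusted p = 0.0123) lower.

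Nampt ran at 29.7, 41.9 and 64.4 CPM in ND+veh, 69.5, 119 and 286 in HFD+veh, and 41.6, 53.9 and 67.6 in HFD+eRapa, so HFD+veh overlapped neither other group. Elovl3 ran at 65.9, 382 and 505 CPM in ND+veh, 23.2, 33.7 and 235 in HFD+veh, and 258, 366 and 463 in HFD+eRapa. Wee1, like Dbp and Nr1d2, stayed high, at medians of 3.70, 6.28 and 7.72 CPM, and HFD+eRapa against ND+veh called it higher (1.16, SE 0.35, adjusted p = 0.0266). That contrast called 3 of 14 outputs, where 13.5% of all genes were called. Besides Wee1 these were Gys2 (0.57, SE 0.16, adjusted p = 0.0189), liver glycogen synthase, higher, and Lonrf3 (−1.10, SE 0.29, adjusted p = 0.0114) lower. Macrophage and other immune markers moved between groups in the directions of Nampt, Noct and Upp2. With the immune score in the model, 8 of 14 outputs were called in HFD+veh against ND+veh, where 8.34% of all genes were called. Between HFD+eRapa and HFD+veh 5 of 14 were called with it, where 6.23% of all genes were. The part of immune cells in the levels of these outputs was otherwise not tested.

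**Figure D5:**
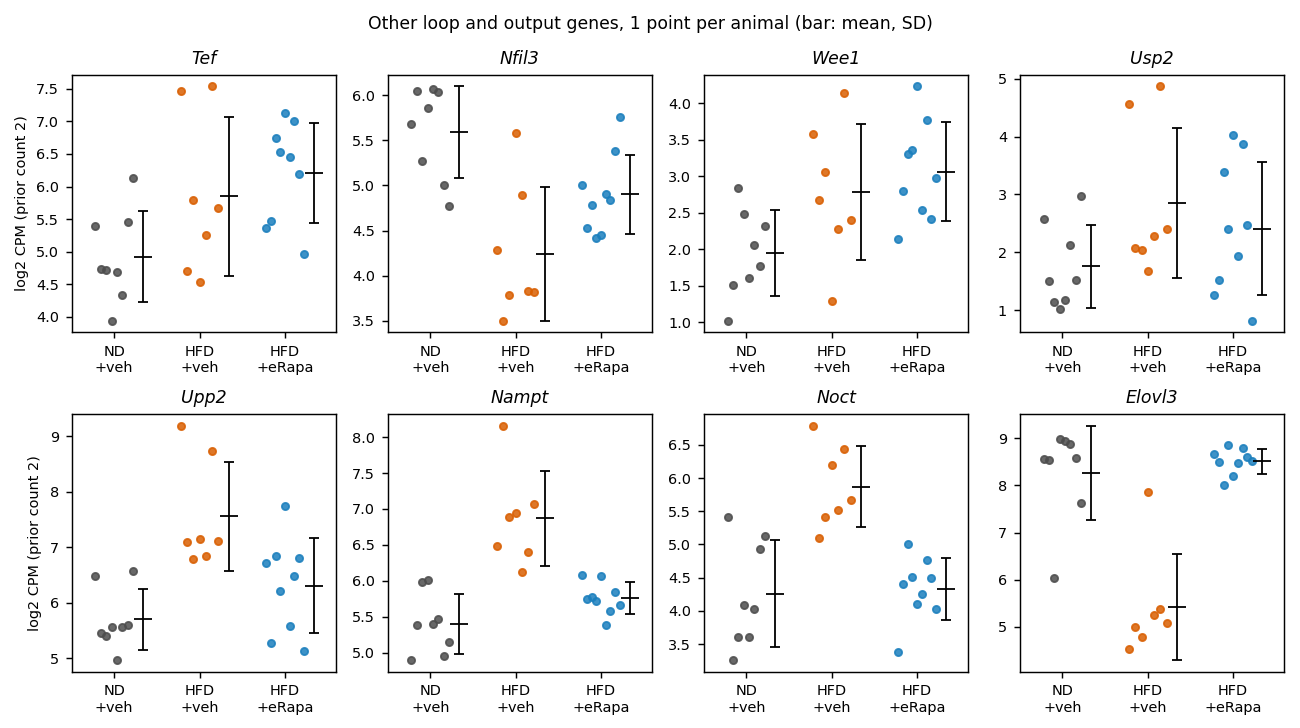
Levels of 2 other loop genes (Tef, Nfil3) and 6 output genes as log2 CPM, with 1 point per animal, the group mean and SD, and a sideways position without meaning. Tef, Wee1 and Usp2 are higher in both high-fat groups than in ND+veh by median, as Dbp, Per3, Ciart and Nr1d2 are. For Upp2, Nampt, Noct and Elovl3 the mean of HFD+eRapa lies nearer that of ND+veh than that of HFD+veh.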

How the data were processed

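RNA was sequenced from hepatocytes isolated by collagenase perfusion, and the labels gave each library's group and number. The authors aligned reads with STAR to mm10 (Gencode M23). The deposited counts are raw reads per gene that the authors made with HTSeq 0.11.2, with the strand setting not stated, and the deposited FPKM values were made by the authors with Cufflinks. Here the counts were tested with edgeR 4.0.16 (filterByExpr, TMM, estimateDisp, robust glmQLFit, glmQLFTest) in 1 fit of 24 libraries and 3 groups, with Benjamini-Hochberg adjustment over 13847 genes and SE taken as the log2 fold change over the square root of F. Log2 CPM used a prior count of 2. FPKM served for levels between genes and as an alternative, on log2(FPKM + 1) and log2(FPKM + 0.1) with limma 3.58.1. Correlations used two-sided exact permutation tests within each group. Every pair of libraries in a group differed beyond sampling noise (chi-square per degree of freedom at least 11.3).

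The members and lists were chosen with earlier results of these data known. All members were named, with called genes of the other loop and output lists (at most 6 per list by size of change), Clock and Cry2, and the 5 genes at each end of the likeness search with Arntl and with Dbp, of which 1 is not reported here. Marker, glucocorticoid, immediate early and temperature lists were described by counts. Gene positions came from Gencode M21 (GRCm38). Alternatives were DESeq2 1.42.0, limma voom, DESeq2 size factors, 2 filters on low counts, fits of only the groups compared, a replicate block, an immune score covariate, FPKM and leaving out each library. Libraries are separate animals. Animals of the same replicate number were not treated as pairs in the main fit.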

Additional observations from a re-analysis of the deposited data

Results flagged for a closer look

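In ND+veh, replicate 3 stood apart from the other 7 animals in both activator genes. Its log2 CPM of Arntl was 3.89, against 4.62 to 5.05 in the others, a gap of 0.63 of the group's range. Its log2 CPM of Npas2 was 1.36, against 3.03 to 4.08 in the others, a gap of 0.61 of the range. The same animal held the most Dbp, Per3 and Nr1d1 of its group, at 21.6, 5.26 and 110 CPM. Of 30 groups of values examined, 2 passed the criterion, where chance would give 1.5 if the groups were independent. They are not, since both flags are the same animal and Arntl and Npas2 correlated at r = 0.96 in ND+veh. Without this animal Dbp was 3.96 on the log2 scale above ND+veh in HFD+veh and 4.09 above it in HFD+eRapa.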

How the results depend on the processing

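Spread among animals, and low counts in Ciart, Per3 and Npas2, limit these results. The number of members called in HFD+veh against ND+veh was 4 with limma voom and 4 with at least 10 counts in every library, a filter that kept 7 members. In HFD+eRapa against ND+veh it was 4 with limma voom, 3 without an expression filter and 4 with the count filter, and in HFD+eRapa against HFD+veh it was 2 with the immune score. DESeq2 kept these counts within 1.5 times. The other loop genes called in HFD+veh against ND+veh were 5 with DESeq2, 7 with the immune score and 1 with voom, no filter, only the groups compared, or either FPKM scale. In HFD+eRapa against HFD+veh they were 1 with voom, no filter, only the groups compared or the immune score, and 0 with either FPKM scale. In HFD+eRapa against ND+veh they were 2 with DESeq2 or voom, 0 without a filter, 3 with only the groups compared and 4 with the immune score. The cause of these differences was not tested.

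Signs turned in uncalled differences. In HFD+veh against ND+veh, Per2 was −0.01 on log2(FPKM + 1), and Nr1d1 was 0.25 with voom, 0.01 with the count filter, 0.82 with the immune score, and 0.19 and 0.24 on log2(FPKM + 1) and log2(FPKM + 0.1). In HFD+eRapa against HFD+veh, Arntl was −0.01 with the count filter, Per2 was 0.26 with voom, 0.02 without a filter and 0.03 and 0.10 on the FPKM scales, Per3 was 0.09 with voom, and with the immune score Nr1d1, Nr1d2 and Dbp were −0.16, −0.15 and −1.68.

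Whether replicate numbers pair animals across groups is not given. With group means removed, same-numbered animals correlated at a mean r of 0.316, −0.245 and −0.203 over 7, 7 and 8 pairs. These are for HFD+veh against ND+veh, HFD+eRapa against HFD+veh and HFD+eRapa against ND+veh. The lowest values were −0.36, −0.659 and −0.518 and the highest 0.726, 0.495 and 0.367. In the same order, 2, 0 and 0 animals correlated best with their own number. An order of collection or processing shared by number was not tested. With the replicate number as a block, Nr1d1 was 0.06 in HFD+veh against ND+veh, Per2 and Per3 were 0.50 and 0.39 in HFD+eRapa against HFD+veh, the members called in HFD+eRapa against ND+veh were 4, and the other loop genes called in the 3 contrasts were 1, 1 and 0. Under the block the calls lost were Per3 and Dbp in the first contrast (edgeR adjusted p of 0.0783 and 0.0856) and Arntl, Per3 and Ciart in the third (0.0884, 0.0873 and 0.0585).

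Over all genes, HFD+veh against ND+veh called 3584, but 1155 with the immune score, 2333 with only the groups compared, 2340 on log2(FPKM + 0.1) and 2106 without HFD+veh replicate 6. HFD+eRapa against HFD+veh called 4432, but 2809 with the count filter, 2532 with the block and 862 with the immune score.

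Leaving out 1 library gave 5 to 7, 0 to 0 and 3 to 7 members called in the 3 contrasts, 1 to 4, 0 to 3 and 0 to 2 other loop genes, and 4 to 6, 4 to 8 and 2 to 3 outputs. Differences that turned were Nr1d1 in the first (−0.18 to 0.27), Per1 in the third (−0.13 to 0.34) and, in the second, Arntl (−0.16 to 0.34), Npas2 (−0.41 to 0.60), Per2 (−0.16 to 0.48), Per3 (−0.70 to 0.32), Cry1 (−0.10 to 0.33), Nr1d2 (−0.01 to 0.25), Dbp (−0.26 to 0.67) and Ciart (−1.19 to 0.17). The median SD of the members ran from 0.93 to 1.10, 0.88 to 1.21 and 0.69 to 0.81 in ND+veh, HFD+veh and HFD+eRapa.

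For the correlations, r between Arntl and Dbp in ND+veh was −0.59 on log2(FPKM + 1), −0.52 on log2(FPKM + 0.1), −0.60 with total counts and −0.58 without the 2 farthest animals. Arntl with Per3 in HFD+eRapa was −0.76, −0.73, −0.70 and −0.77 in the same order. Nr1d1 with Dbp was 0.76, 0.77 and, without the 2 farthest, 0.48 in HFD+eRapa, and 0.83 on log2(FPKM + 0.1) in ND+veh. Without the 2 farthest animals HFD+veh gave −0.85 for Arntl with Dbp, −0.97 for Arntl with Per3 and 0.00 for Npas2 with Nr1d1. Per1 with Per2 in ND+veh was −0.21 and −0.16 on the FPKM scales and −0.60 without the 2 farthest, which gave 0.09 in HFD+veh and −0.43 in HFD+eRapa. Leaving out 1 animal, r ran in ND+veh, HFD+veh and HFD+eRapa from −0.81 to −0.49, −0.73 to −0.50 and −0.66 to −0.33 for Arntl with Nr1d1, from −0.87 to −0.23, −0.78 to −0.46 and −0.77 to −0.44 for Npas2 with Nr1d1, from −0.90 to −0.62, −0.98 to −0.92 and −0.93 to −0.85 for Arntl with Dbp, from −0.82 to −0.52, −1 to −0.98 and −0.89 to −0.79 for Arntl with Per3, from 0.68 to 0.87, 0.74 to 0.88 and 0.74 to 0.90 for Nr1d1 with Dbp, and from −0.25 to 0.46, −0.37 to 0.18 and −0.38 to 0.44 for Per1 with Per2.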

Other observations

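Lists of genes that answer to hormones, stimulation and temperature were examined because Per1 and Per2 respond to such signals. Over all genes tested, 25.9%, 32.0% and 13.5% were called in HFD+veh against ND+veh, HFD+eRapa against HFD+veh and HFD+eRapa against ND+veh, and nothing particular to these short lists is read from their counts. Of 10 immediate early genes, HFD+veh against ND+veh called 0 by edgeR (4 at an unadjusted p under 0.05), HFD+eRapa against HFD+veh called 3 lower, and HFD+eRapa against ND+veh called 2 lower, with summed medians of 912, 618 and 555 CPM in ND+veh, HFD+veh and HFD+eRapa. Of 8 glucocorticoid targets, 1 was called higher and 1 lower in HFD+veh against ND+veh, 2 higher and 1 lower in HFD+eRapa against HFD+veh, and 1 lower in HFD+eRapa against ND+veh. Of 7 temperature responsive genes, 1 was called higher and 3 lower in HFD+veh against ND+veh, and 3 higher and 1 lower in HFD+eRapa against HFD+veh. In HFD+eRapa against ND+veh edgeR called 0 of the 7, with 0 at an unadjusted p under 0.05. The part of these signals in the levels of the clock genes was not tested.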
